A study of Macaca mulatta with 34 samples.

Results

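Genes of the inflammasome, of pyroptosis and of necroptosis were followed in rhesus macaques, in the deep cerebellar nuclei (DCN), which carry the output of the cerebellum. The 9 genes were chosen by symbol as CASP1, CASP8, GSDMD, NLRP3, NLRP1, PYCARD, BCL2A1, MLKL and RIPK3, not by a cut on measured values. Earlier results of these data were known when they were chosen. Of these, 7 had a macaque Ensembl identifier in the annotation tables at hand, among 34847 identifiers in the count tables. CASP1 and RIPK3 had none there, and no value is given for them. All 7 matched genes passed the filter on low counts in each comparison of all libraries.

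Total RNA was sequenced from 22 DCN libraries, each from a different animal, after injection guided by magnetic resonance imaging. In Study 1, which looked for the cause of a toxicity, 6 animals received AAV.miS1, a recombinant AAV2/1 vector that carries an artificial microRNA, and 4 received vehicle. In Study 2, which characterised immune responses to redesigned cargo, 3 animals each received StufferOnly, miSCA7Stuffer, intmiS1 or, as the control, empty capsid. By their names StufferOnly carries filler sequence, miSCA7Stuffer filler with a microRNA, and intmiS1 a construct of the miS1 microRNA. Both control groups were injected too, with vehicle in Study 1 and with capsid that holds no cargo in Study 2. The promoters appear in the sources used here only through names of vector sequences. These names hold mU6 with miS1, or EF1a and hATXN1L with miS1. The doses and the time from injection to sampling are not given.

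Inflammasomes are protein platforms in which a sensor such as NLRP1, NLRP3 or AIM2 recruits the adaptor PYCARD, also called ASC, and through it caspase-1. Caspase-1 matures the cytokines interleukin-1 beta and interleukin-18 and cuts gasdermin D (GSDMD), whose released fragment opens pores in the plasma membrane, the event that defines pyroptosis. Necroptosis is a second lytic death in which the kinase RIPK3 activates the membrane-permeabilising MLKL, and caspase-8 (CASP8) restrains it while also starting apoptosis below death receptors. In the brain several of these genes are known from microglia and from blood-derived myeloid cells, though not from these alone.

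The count tables differed in depth. Counts in genes ranged from 2049685 to 4810852 in the AAV.miS1 libraries, while vehicle replicate 2 held 87741 and the other vehicle libraries 2270423 to 3439609. In Study 2 they ranged from 20978241 to 39792653, apart from intmiS1 replicates 1 and 2, which were counted with another program and held 5169866 and 4858179. All 8 markers of cerebellar neurons were detected in every group. ATXN1, the gene miS1 is aimed at, lay between 49.6 and 90.2 CPM (counts scaled to the library total) with AAV.miS1 and between 91.2 and 104 CPM with vehicle, so the groups did not overlap. The ranges were 28.5 to 50.5 CPM with intmiS1 and 45.5 to 57.6 CPM with empty capsid. ATXN7, the gene of spinocerebellar ataxia type 7 (SCA7), ranged from 25.0 to 37.0 CPM with miSCA7Stuffer and from 32.9 to 36.7 CPM with empty capsid.

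Some libraries stood apart. In vehicle replicate 2, 1 count equals 10.4 CPM, so a member there is at 0 or at 10.4 CPM. Vector reads, scaled to the counts in genes (RPM), were at 349 and 257 RPM in miSCA7Stuffer replicates 2 and 3 and at 1.64 RPM in miSCA7Stuffer replicate 1, against 0.151 to 0.281 RPM with empty capsid. Calls, fold changes and ratios of the 7 genes are given with and without them for AAV.miS1 against vehicle and miSCA7Stuffer against empty capsid. So are the counts of list genes in these comparisons and the marker sums that rest on these libraries. StufferOnly against empty capsid and the intmiS1 comparisons share their estimate of the spread with miSCA7Stuffer replicate 1. They were not refitted without this library alone. The differences between the studies are given without vehicle replicate 2 as calls alone. CPM values above and below are scaled with TMM over the 10 libraries of Study 1 or the 12 of Study 2, unless stated otherwise. Levels are compared only within a study and within a gene.

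With AAV.miS1, 5 of the 7 genes rose against vehicle at an adjusted p of 0.05 (edgeR quasi-likelihood test, Benjamini-Hochberg over all 13383 genes tested), and the other 2, CASP8 and MLKL, did not pass. Of all genes tested, 7.22% were called higher. The median log2 fold change of the 7 genes was 2.41, beside 0.02 over all genes tested. Fold changes below are fitted log2 values with their standard error (SE).

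Both inflammasome sensors rose. NLRP1, a sensor that activates itself when its inhibitory part is degraded, ranged from 16.3 to 60.0 CPM with AAV.miS1 with a median of 31.4, against 8.22, 10.4, 6.19 and 10.6 CPM with vehicle. Every AAV.miS1 library lay above every vehicle library, and the log2 fold change was 2.11 (SE 0.42, adjusted p = 0.0275 by edgeR). NLRP3, a sensor of membrane damage and ion loss, ranged from 8.85 to 43.2 CPM with AAV.miS1 with a median of 24.6, against 8.66, 10.4, 5.06 and 4.97 CPM with vehicle. The groups overlapped only through the 1 count of vehicle replicate 2, which lay above AAV.miS1 replicate 5. The log2 fold change of NLRP3 was 2.03 (SE 0.46, adjusted p = 0.0309 by edgeR).

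PYCARD, the adaptor between sensor and caspase, ranged from 4.77 to 43.9 CPM with AAV.miS1 with a median of 24.9, against 2.597, 0, 1.69 and 3.98 CPM with vehicle. All 6 AAV.miS1 libraries lay above the 4 vehicle libraries, with a log2 fold change of 3.18 (SE 0.75, adjusted p = 0.0337 by edgeR). CASP8, the initiator caspase, ranged from 4.77 to 39.3 CPM with AAV.miS1 with a median of 17.7, against 3.90, 10.4, 1.41 and 4.97 CPM with vehicle. AAV.miS1 replicates 5 and 6 fell among the vehicle values and the other 4 lay above them. Its log2 fold change of 2.41 (SE 0.67) missed the threshold, with an adjusted p of 0.0526 by edgeR and 0.00662 by DESeq2.

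Of the pore-forming genes, GSDMD rose and MLKL did not pass. GSDMD ranged from 3.06 to 21.2 CPM with AAV.miS1 with a median of 13.5, against 2.16, 0, 0.281 and 0.663 CPM with vehicle. The groups did not overlap, and the log2 fold change was 3.64 (SE 0.77, adjusted p = 0.0276 by edgeR). The vehicle values rest on 8 counts in all 4 libraries together. MLKL ranged from 2.04 to 14.9 CPM with AAV.miS1 with a median of 6.24, against 5.19, 0, 1.69 and 1.33 CPM with vehicle. Only AAV.miS1 replicate 5 lay below the highest vehicle library, and the log2 fold change was 1.45 (SE 0.62, adjusted p = 0.161 by edgeR).

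BCL2A1, a pro-survival member of the BCL2 family that NF-kB induces in leukocytes, had the largest log2 fold change of the 7 genes. It ranged from 0.340 to 60.2 CPM with AAV.miS1 with a median of 14.5, against 0, 10.4, 0.844 and 0.332 CPM with vehicle. The lowest AAV.miS1 value and the highest vehicle value are 1 count each, in AAV.miS1 replicate 5 and vehicle replicate 2. The log2 fold change was 5.06 (SE 1.37, adjusted p = 0.0483 by edgeR).

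Among the 7 genes, 3 (GSDMD, NLRP1 and PYCARD) did not overlap between the groups and lay higher with AAV.miS1, as did 7.47% of all genes tested. The AAV.miS1 animals kept one order at both ends: replicate 1 was the highest and replicate 5 the lowest for all 7 genes. Relative to the vehicle mean, the median ratio over the 7 genes was 7.60 in replicate 1, 4.95 in replicate 4, 3.79 in replicate 2, 3.51 in replicate 3, 2.79 in replicate 6 and 1.22 in replicate 5. With vehicle replicate 2 left out of that mean, the medians were 11.5 in replicate 1, 7.47 in replicate 4, 6.52 in replicate 2, 5.30 in replicate 3, 2.80 in replicate 6 and 1.42 in replicate 5. These 7 ratios share their libraries and are not independent.

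**Figure D1:**
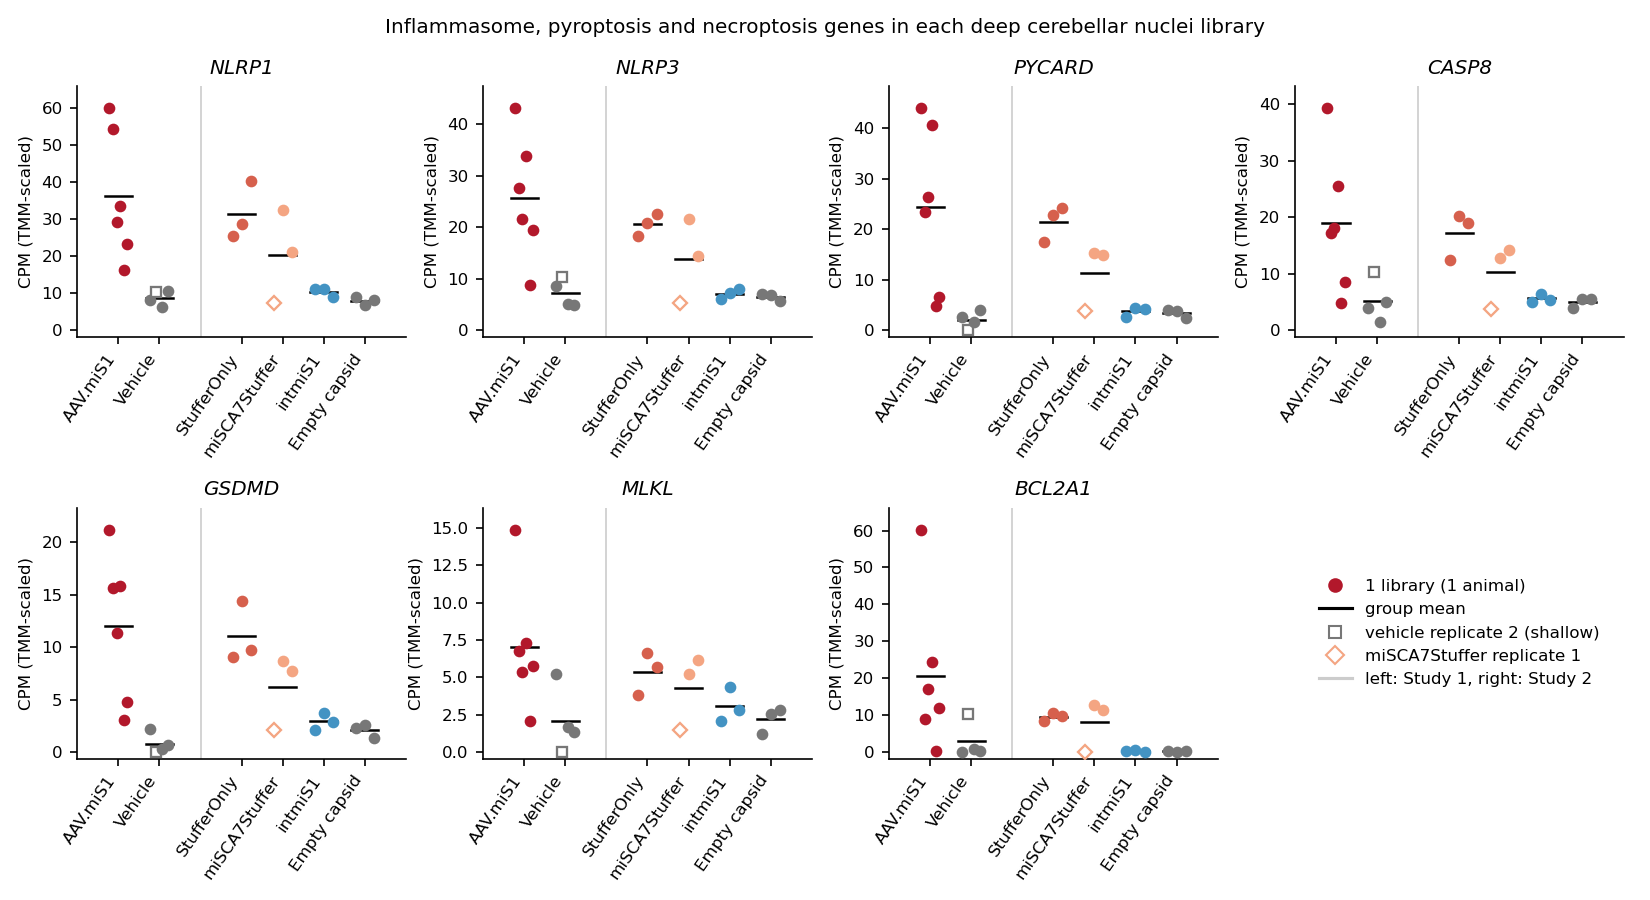
Level of each of the 7 genes in every library, in CPM scaled with TMM on a linear axis, with 1 point per animal and a line at the group mean. The AAV.miS1 and StufferOnly group means lie above those of their controls, miSCA7Stuffer replicate 1 (open diamond) lies with empty capsid, and vehicle replicate 2 (open square) is the library in which 1 count equals 10.4 CPM.

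The calls in Study 1 rested on single libraries under edgeR. Without vehicle replicates 1, 2, 3 and 4 in turn, edgeR called 0 of the 7 genes each time, with 1, 2, 0 and 2 genes called among all tested. At an unadjusted p under 0.05 were 7, 6, 6 and 6 of the 7. At that level lay 2856 of 13695, 3548 of 13739, 2583 of 13676 and 2873 of 13712 genes tested. By edgeR 0 were called without AAV.miS1 replicate 4, 2 without replicate 2 and 3 without replicate 3. Among all genes, 3 of 13200, 472 of 13173 and 554 of 13240 were called higher in these fits. Without replicate 4, 6 of the 7 and 2710 of all genes were at an unadjusted p under 0.05. DESeq2 called 6 of the 7 genes with all libraries, CASP8 being the sixth, beside 12.3% of all genes called higher. It called 6, 6, 5 and 6 without vehicle replicates 1 to 4. Among all genes it then called 1101 of 13695, 1783 of 13739, 967 of 13676 and 1099 of 13712 higher. Without vehicle replicate 1 the log2 fold changes of GSDMD and MLKL were 4.60 and 2.22 by edgeR, and without AAV.miS1 replicate 1 that of BCL2A1 was 4.35. By DESeq2, BCL2A1 was at 4.04 without vehicle replicate 1 and at 4.19 without vehicle replicate 4. Without the shallow vehicle replicate 2, edgeR fold changes ranged from 1.41 for MLKL to 5.43 for BCL2A1.

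The share of unmapped reads also split the Study 1 libraries, into vehicle replicates 2 to 4 with AAV.miS1 replicates 5 and 6 (over 15%) and vehicle replicate 1 with AAV.miS1 replicates 1 to 4 (under 15%). With this set as a covariate GSDMD alone passed (2.90, adjusted p = 0.0261 by edgeR), and the log2 fold change was 2.10 for PYCARD, 4.15 for BCL2A1 and 1.67 for CASP8. Of all 14236 genes, 146 were called higher in that fit. Within the set over 15%, log2 fold changes ranged from 0.97 for CASP8 to 2.79 for BCL2A1, with 0 of 5 genes called, while GSDMD and MLKL were under the count filter. At an unadjusted p under 0.05 were 3 of the 5, and 1257 of all 13320 genes in that fit. Within the set under 15%, which holds 1 vehicle library, log2 fold changes ranged from 0.72 for MLKL to 9.54 for BCL2A1. All of these values were above 0.

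The wider pathway was read from 5 gene lists that hold 92 genes, 82 of them with an identifier. Apart from the 7 genes, 61 list genes were tested in Study 1, of which 18 rose and 0 fell, with a median log2 fold change of 1.16. Among the other 10 genes tested of inflammasome sensors, adaptors and caspases, 3 rose: AIM2, a sensor of cytosolic DNA (56.9 ± 28.6 CPM with AAV.miS1, SD, n = 6, against 11.1 ± 1.88 CPM with vehicle, n = 4), NAIP, a sensor of bacterial proteins (log2 fold change 2.48), and CASP5, an inflammatory caspase that binds lipopolysaccharide in human cells (3.85). CASP5 and its close paralog CASP4 can share reads, and NAIP has near-identical copies in the human genome, so their counts are less certain. CASP4 had a log2 fold change of 2.82 and did not pass (adjusted p = 0.0666 by edgeR).

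Cytokine genes of the interleukin-1 family rose together with one of their inhibitors. IL1B, the cytokine that caspase-1 matures, was 20.6 ± 9.57 CPM with AAV.miS1 and 4.09 ± 3.01 CPM with vehicle (log2 fold change 1.98, adjusted p = 0.0312 by edgeR). IL1RN, the receptor antagonist of interleukin-1, was 7.99 ± 6.08 CPM with AAV.miS1 and 0.332 ± 0.24 CPM with vehicle (4.08, adjusted p = 0.0295 by edgeR). IL33, an alarmin of the same family, was 59.6 ± 18.4 CPM with AAV.miS1 and 12.1 ± 6.03 CPM with vehicle (2.23, adjusted p = 0.0275 by edgeR). These 3 were the rises among 9 genes tested of the list, and none of them overlapped between the groups. Without vehicle replicate 2 the vehicle means were 5.45 CPM for IL1B, 0.442 CPM for IL1RN, 12.7 CPM for IL33 and 11.4 CPM for AIM2. IL18 had a log2 fold change of 1.89 and did not pass (adjusted p = 0.0997 by edgeR).

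Of 18 other genes tested of death receptors and the necroptosis complex, 5 rose, among them BIRC3, a ubiquitin ligase of the tumour necrosis factor receptor complex (log2 fold change 4.79), TNFAIP3, which restrains NF-kB (1.67), the receptor TNFRSF1A (1.27) and CFLAR, the regulator of caspase-8 (1.60). RIPK1, the kinase above RIPK3, and ZBP1, a nucleic acid sensor that can start necroptosis, had log2 fold changes of 1.07 and 3.34 and did not pass. Of 20 other genes tested of the BCL2 family and apoptotic caspases, 6 rose, among them APAF1, the scaffold of the apoptosome (1.73), and the pro-apoptotic BBC3 (2.72) and BMF (2.89). Of 4 other genes tested of gasdermins and membrane rupture, GSDMA rose (3.14). Without any 1 vehicle replicate, or without AAV.miS1 replicate 4, edgeR called 0 of these list genes, while DESeq2 called 32 higher and 1 lower with all libraries and 16 to 30 higher without 1 vehicle replicate.

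Summed markers of myeloid cells and of lymphocytes were also higher in most AAV.miS1 libraries of Study 1. The summed level of 8 macrophage and monocyte markers ranged from 243.4 to 8341 CPM with AAV.miS1 and from 65.0 to 374 CPM with vehicle, all 8 being detected in both groups. It was highest in AAV.miS1 replicate 1, at 8341 CPM, and lowest in AAV.miS1 replicate 5, at 243.4 CPM, the libraries at the ends of the order above. The 8 microglial markers ranged from 848 to 1860 CPM with AAV.miS1 and from 647 to 903 CPM with vehicle. The 8 markers of B and plasma cells ranged from 33.4 to 5148 CPM and the 8 of cytotoxic lymphocytes from 4.77 to 97.2 CPM with AAV.miS1, against 3.32 to 187 CPM and 0 to 2.53 CPM with vehicle. Without vehicle replicate 2 the highest vehicle sums were 89.4 CPM for macrophages and monocytes, 778 CPM for microglia and 18.6 CPM for B and plasma cells. KLRD1 of cytotoxic cells was at 0 in all vehicle libraries. The sums of B and plasma cells and of cytotoxic lymphocytes were highest in AAV.miS1 replicate 4, not in replicate 1.

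Markers of T cells ranged from 40.9 to 140 CPM with AAV.miS1 and from 31.2 to 43.1 CPM with vehicle, where LCK was at 0. The lowest AAV.miS1 value, in replicate 3, lay within the vehicle range. The 7 neutrophil markers with an identifier summed to at most 21.1 CPM with AAV.miS1 and 2.98 CPM with vehicle, and ELANE, S100A8, S100A9 and S100A12 were at 0 in every AAV.miS1 library. Markers of neurons ranged from 82.7 to 3085 CPM with AAV.miS1 and from 1869 to 3234 CPM with vehicle (from 2674 CPM without vehicle replicate 2), lowest in AAV.miS1 replicate 1. Vector reads were at 23.1, 586, 114, 108, 24.1 and 28.8 RPM in AAV.miS1 replicates 1 to 6, against 0.336 to 11.4 RPM with vehicle. Replicates 1 and 5, highest and lowest for the 7 genes, were close in RPM, from 111 and 71 vector reads. In bulk tissue, more cells of a type and more RNA of a gene per cell cannot be told apart, and the part of these cell types in the results was not tested.

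**Figure D2:**
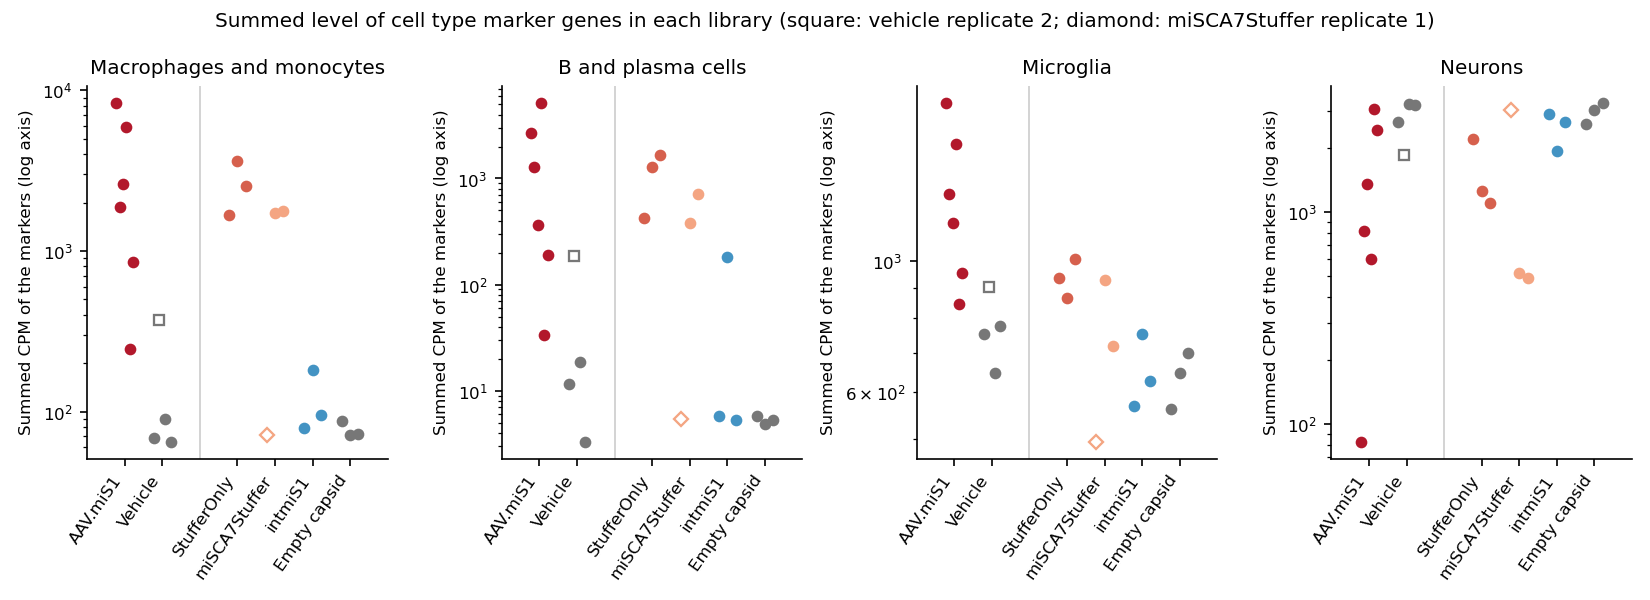
Summed CPM of the marker genes of 4 cell types in every library, on a log axis, with 1 point per animal (square, vehicle replicate 2; diamond, miSCA7Stuffer replicate 1). Macrophage and monocyte markers reach 8341 CPM with AAV.miS1 and 3642 CPM with StufferOnly, and miSCA7Stuffer replicate 1 lies at 71.3 CPM, within the range of empty capsid.

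In Study 2, animals given StufferOnly had higher levels of these genes than animals given empty capsid. Of the 7 genes, 6 rose, all but MLKL, where 11.6% of all 20882 genes tested were called higher by edgeR. The median log2 fold change of the 7 genes was 1.98, beside 0.02 over all genes tested. All 7 genes, MLKL included, were higher in each of the 3 StufferOnly libraries than in any empty capsid library, as were 26.8% of all genes tested.

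The sensors and the adaptor had the following values. NLRP1 was at 25.4, 28.7 and 40.5 CPM with StufferOnly and at 8.94, 6.93 and 8.13 CPM with empty capsid (log2 fold change 1.98, SE 0.47, adjusted p = 0.0281 by edgeR). NLRP3 was at 18.3, 20.9 and 22.6 CPM with StufferOnly and at 7.01, 6.93 and 5.71 CPM with empty capsid (1.65, SE 0.42, adjusted p = 0.0348). Both sensors stood clear of the control in all 3 animals. PYCARD was at 17.4, 22.7 and 24.1 CPM with StufferOnly and at 3.99, 3.91 and 2.46 CPM with empty capsid (2.63, SE 0.49), and its adjusted p of 0.0194 by edgeR was the smallest of the 7.

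CASP8 was at 12.4, 20.2 and 18.9 CPM with StufferOnly and at 4.01, 5.49 and 5.48 CPM with empty capsid (log2 fold change 1.78, SE 0.45, adjusted p = 0.0346 by edgeR). GSDMD was at 9.08, 14.4 and 9.70 CPM with StufferOnly and at 2.32, 2.56 and 1.29 CPM with empty capsid (2.42, SE 0.52, adjusted p = 0.0235). Neither gene overlapped between the groups. MLKL was at 3.82, 6.59 and 5.66 CPM with StufferOnly and at 1.22, 2.56 and 2.79 CPM with empty capsid, a log2 fold change of 1.29 (SE 0.54) that did not pass (adjusted p = 0.137).

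BCL2A1 was at 8.42, 10.6 and 9.70 CPM with StufferOnly and at 0.104, 0.0753 and 0.133 CPM with empty capsid. The control values rest on 10 counts in the 3 libraries together, and the log2 fold change was 6.46 (SE 1.60, adjusted p = 0.0321 by edgeR). StufferOnly replicate 1 was the lowest of its group for all 7 genes.

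These calls too rested on single libraries under edgeR. It called 0 of the 7 genes without empty capsid replicate 1, 2 or 3 and without StufferOnly replicate 2 or 3, with 0 to 53 genes called among all tested. At an unadjusted p under 0.05 were 6 of the 7, and 5108 to 5532 of the 21456 to 21753 genes tested. Without StufferOnly replicate 1 edgeR called 4, beside 2018 of all 21509 genes called higher. DESeq2 called 6 of the 7 with all libraries, beside 16.2% of all genes called higher. It also called 6 without any 1 of the 6 libraries, beside 2279 to 3198 of all genes called higher. An edgeR fit of these 2 groups alone, which leaves out miSCA7Stuffer, called 3786 of all 20028 genes higher. There all 7 genes were at an unadjusted p under 0.05, as were 8756 of all genes.

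Of 72 other list genes tested with StufferOnly, 30 rose and 3 fell, with a median log2 fold change of 1.17. The inflammatory caspases CASP4 and CASP5 were 9.73 ± 0.359 and 18.2 ± 3.65 CPM with StufferOnly and 0.597 ± 0.0685 and 1.43 ± 0.354 CPM with empty capsid (SD, n = 3 each; log2 fold changes 4.02 and 3.67), with the same doubt over shared reads. DPP9, an inhibitor of NLRP1, rose by a log2 of 0.82 (63.7 ± 9.86 CPM with StufferOnly, 36.0 ± 1.88 CPM with empty capsid), while its relative DPP8 fell by 0.50. TXNIP, a binding partner of thioredoxin, rose by 1.64. In all, 5 of the 14 other genes tested of inflammasome sensors, adaptors and caspases rose and 1 fell.

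The interleukin-1 and interleukin-18 system had 6 of 14 genes up. IL1RN was 4.09 ± 1.41 CPM with StufferOnly and 0.224 ± 0.09 CPM with empty capsid (log2 fold change 4.15, adjusted p = 0.0161 by edgeR). IL18BP, which neutralises interleukin-18, and IL18 itself rose by 1.21 and 1.91, IL1A by 4.74 and IL1B by 1.50. IL18BP was at 0 CPM in every Study 1 library and at a median of 0 CPM with intmiS1 (maximum 20.2). Its counts may thus depend on the counting program and are less certain. NINJ1, which ruptures the plasma membrane late in lytic death, rose by 0.98 (42.2 ± 3.48 CPM with StufferOnly, 21.4 ± 2.23 CPM with empty capsid) and was the 1 of 4 other genes tested of its list that passed.

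Among 19 other death receptor and necroptosis genes tested with StufferOnly, 8 rose, including the adaptors TICAM1 (log2 fold change 1.25) and TRADD (1.09), TNFRSF1A (1.26), CFLAR (1.66), RIPK1 (0.97) and ZBP1 (2.79). Among 21 other genes tested of the BCL2 family and apoptotic caspases, 10 rose and 2 fell. The rises included pro-survival BCL2L1 (1.33), the pore-forming BAX (1.30) and BMF (3.45). The falls were CYCS, the cytochrome c of the apoptosome (-1.05), and BOK (-0.83). Without any 1 of the 6 libraries other than StufferOnly replicate 1, edgeR called 0 of the list genes, and DESeq2 called 26 to 40 higher without any 1 of them and 44 with all.

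**Figure D3:**
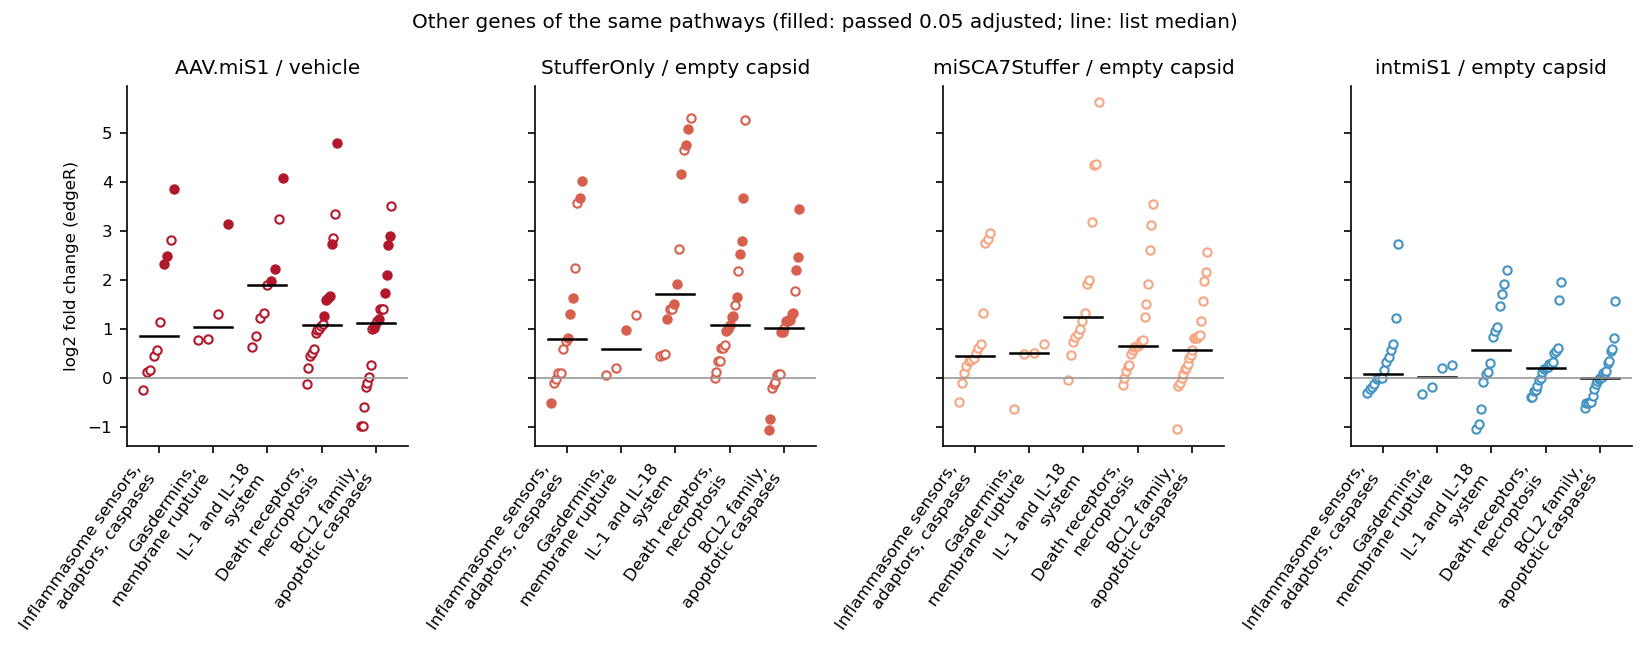
Fitted log2 fold change of the other genes of the 5 pathway lists in 4 comparisons, with 1 point per gene and list, filled where the adjusted p by edgeR was under 0.05, and a line at the list median. Filled points appear in the AAV.miS1 and StufferOnly panels, 18 and 33 genes, and none in the miSCA7Stuffer and intmiS1 panels.

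Macrophage and monocyte markers summed to 1676, 3642 and 2540 CPM with StufferOnly and to 71.1 to 87.0 CPM with empty capsid. Microglial markers ranged from 866 to 1011 CPM with StufferOnly and from 560.5 to 700 CPM with empty capsid. B and plasma cell markers ranged from 425 to 1677 CPM with StufferOnly and from 4.82 to 5.73 CPM with empty capsid, where CD79B was at 0. Cytotoxic lymphocyte markers ranged from 14.8 to 39.6 CPM with StufferOnly and from 1.54 to 2.03 CPM with empty capsid, where GZMA was at 0. The 7 neutrophil markers summed to 7.44 to 11.1 CPM with StufferOnly and 1.59 to 3.69 CPM with empty capsid. Neuronal markers ranged from 1102 to 2221 CPM with StufferOnly and from 2620 to 3280 CPM with empty capsid. Oligodendrocyte markers ranged from 14875 to 17355 CPM with StufferOnly and from 24938 to 37481 CPM with empty capsid, and endothelial markers from 363 to 471 CPM with StufferOnly and from 190.0 to 299.6 CPM with empty capsid. The endothelial sum does not speak for each marker: the median log2 fold change of the 8 genes was -0.41, with 2 called higher and 0 lower by edgeR. None of these sums overlapped between the groups, whereas those of T cells, astrocytes and cerebellar neurons did. T cell markers ranged from 43.6 to 100.97 CPM with StufferOnly and from 43.0 to 56.9 CPM with empty capsid. Of these 8 genes, 6 were called higher by edgeR. Astrocyte markers ranged from 6438.8 to 14089.6 CPM with StufferOnly and from 12063 to 12676 CPM with empty capsid. Those of cerebellar neurons ranged from 100.42 to 263.7 CPM and from 156 to 194 CPM in the same order. The part of these cells in the StufferOnly results was not tested.

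With miSCA7Stuffer the 3 animals differed. Replicates 2 and 3 held the 7 genes at levels near those of StufferOnly, and replicate 1 held them at the level of empty capsid. BCL2A1 was at 0, 12.7 and 11.4 CPM in miSCA7Stuffer replicates 1, 2 and 3 and at most 0.133 CPM with empty capsid. PYCARD was at 3.88, 15.3 and 14.9 CPM, GSDMD at 2.11, 8.67 and 7.72 CPM and NLRP1 at 7.30, 32.4 and 21.1 CPM in the same order, against empty capsid values of at most 3.99, 2.56 and 8.94 CPM. NLRP3 was at 5.34, 21.7 and 14.5 CPM, CASP8 at 3.75, 12.8 and 14.2 CPM and MLKL at 1.47, 5.24 and 6.12 CPM, against at most 7.01, 5.49 and 2.79 CPM with empty capsid. For every one of the 7 genes replicate 1 was the lowest of its group and lay within or below the empty capsid range. The median ratio of the 7 genes to the empty capsid mean was 0.816 in replicate 1, 4.06 in replicate 2 and 2.85 in replicate 3.

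Tested over all 3 animals, 0 of the 7 genes passed against empty capsid by edgeR, where 0.00479% of all genes were called higher. At an unadjusted p under 0.05 were 6 of the 7, as were 4808 of all 20882 genes tested. Log2 fold changes ranged from 0.97 for MLKL to 6.20 for BCL2A1 (SE 0.54 and 1.59), and the adjusted p from 0.134 to 0.301. DESeq2 called 4, namely GSDMD, NLRP1, PYCARD and BCL2A1, beside 7.22% of all genes. Of 72 other list genes 0 passed by edgeR, and by DESeq2 18 rose and 2 fell. Without miSCA7Stuffer replicate 1, edgeR called all 7 genes, where 15.6% of all genes were called higher, and among the other list genes 42 rose and 2 fell. In that fit PYCARD had a log2 fold change of 2.09 (SE 0.23), BCL2A1 of 6.75 (SE 0.27) and MLKL of 1.35 (SE 0.38), with adjusted p of 0.000378, 7.28e-06 and 0.0249.

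Replicate 1 also had the fewest vector reads of its group, at 1.64 RPM against 349 and 257 RPM, and macrophage and monocyte markers of 71.3 CPM against 1720 and 1770. Its neuronal markers were at 3040 CPM, against 519 and 487 CPM in miSCA7Stuffer replicates 2 and 3. Its markers of cerebellar neurons were at 1035 CPM, against 187 and 101.4 CPM in replicates 2 and 3 and 156 to 194 CPM with empty capsid. The part of these in the difference between the animals was not tested. Against StufferOnly, 0 of the 7 genes passed by edgeR or DESeq2, with 0 at an unadjusted p under 0.05 and 0% of all genes called lower. Their log2 fold changes ranged from -0.91 for PYCARD (95% interval -1.96 to 0.13) to -0.26 for BCL2A1 (-2.89 to 2.38), and 2 genes, GSDMD and PYCARD, were lower in every miSCA7Stuffer library than in any StufferOnly library, as were 8.42% of all genes tested. Same-numbered animals of these groups deviated together, and with the replicate number as a block 0 of the 7 passed, with BCL2A1 at -0.94. At an unadjusted p under 0.05 in that fit were 1 of the 7 and 2376 of all 21814 genes.

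With intmiS1 the 7 genes lay near empty capsid. NLRP1 was at 11.1, 11.2 and 8.90 CPM with intmiS1 and at 8.94, 6.93 and 8.13 CPM with empty capsid. NLRP3 was at 6.10, 7.28 and 7.99 CPM with intmiS1, against 7.01, 6.93 and 5.71 CPM with empty capsid. PYCARD was at 2.67, 4.33 and 4.31 CPM with intmiS1 and at 3.99, 3.91 and 2.46 CPM with empty capsid. GSDMD was at 2.10, 3.74 and 2.89 CPM with intmiS1, against 2.32, 2.56 and 1.29 CPM with empty capsid. CASP8 was at 4.96, 6.49 and 5.44 CPM and MLKL at 2.10, 4.33 and 2.80 CPM with intmiS1, against 4.01 to 5.49 CPM and 1.22 to 2.79 CPM with empty capsid. All 7 genes overlapped between these groups. BCL2A1 was at 0.191, 0.393 and 0.0629 CPM with intmiS1, which is 5 counts in all 3 libraries.

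None of the 7 genes passed against empty capsid by edgeR or DESeq2, 0 were at an unadjusted p under 0.05, and 0% of all 21501 genes tested were called higher. Log2 fold changes ranged from 0.13 for NLRP3 (95% interval -0.73 to 0.99) to 0.50 for GSDMD (-0.61 to 1.60). PYCARD was at 0.14 (-0.87 to 1.15), and BCL2A1 at 0.42 with an interval of -4.12 to 4.96. Among the other list genes 0 of 72 passed by edgeR and 0 by DESeq2. Some still lay above every empty capsid library. IL1B was at 10.4 to 13.6 CPM with intmiS1 and at most 6.94 CPM with empty capsid, and IL1A at 0.755 to 0.787 against at most 0.261 CPM. Others lay below, such as DPP8 (73.6 to 89.6 against at least 97.1 CPM). Of all 21501 genes tested, 2045 lay above and 2305 below. Without intmiS1 replicate 3, which leaves the libraries counted with the other program, edgeR called 1852 genes in all, 288 higher and 1564 lower, with 1 list gene higher, 5 lower and 0 of the 7.

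Against StufferOnly, the genes were lower with intmiS1. Of the 7 genes 6, all but MLKL, fell, where 8.46% of all genes were called lower by edgeR, and these 6 were lower in every intmiS1 library than in any StufferOnly library, as were 22.6% of all genes tested. PYCARD had a log2 fold change of -2.48 (SE 0.47, adjusted p = 0.0141), GSDMD of -1.93 (SE 0.50, 0.0344), NLRP3 of -1.52 (SE 0.40, 0.0338) and BCL2A1 of -6.03 (SE 1.66, 0.0409). NLRP1 and CASP8 were both at -1.61, and MLKL was at -0.81 (SE 0.53, adjusted p = 0.329). Of 72 other list genes 16 fell and 1, BOK, rose. Those that fell included IL1RN (-5.17), CASP5 (-3.35), CASP4 (-2.78), BID (-1.16), NINJ1 (-1.16) and TNFRSF1A (-0.97).

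Because intmiS1 replicates 1 and 2 were counted with another program than the other 10 libraries of Study 2, counting method and construct cannot be told apart for these animals. Replicate 3, counted like the rest, had values of the 7 genes between 0.605 and 1.41 times the empty capsid mean. With that library as the only intmiS1 one, edgeR called 0 of the 7 and 0 of all genes against StufferOnly, with 5 of the 7 at an unadjusted p under 0.05. The count of the 7 was 0 without intmiS1 replicate 1 or 2, 2 without replicate 3, 1 without StufferOnly replicate 2 or 3 and 4 without StufferOnly replicate 1. Among all 22073 to 22360 genes tested, 84, 159 and 2889 were called lower without intmiS1 replicates 1, 2 and 3. Without StufferOnly replicates 1, 2 and 3 the calls lower were 1538, 313 and 600. BCL2A1 had a log2 fold change of -5.02 without intmiS1 replicate 3, -6.71 without replicate 2 and -7.15 with replicate 3 alone. Macrophage and monocyte markers were at 79.3, 180 and 95.3 CPM with intmiS1, against 1676 to 3642 CPM with StufferOnly and 71.1 to 87.0 CPM with empty capsid. Cytotoxic lymphocyte markers were at 4.96, 10.2 and 2.93 CPM with intmiS1, all above the 1.54 to 2.03 CPM of empty capsid. Astrocyte markers, at 9109 to 11895 CPM with intmiS1, lay below the 12063 to 12676 CPM of empty capsid. B and plasma cell markers were at 5.72, 184 and 5.29 CPM with intmiS1, against 425 to 1677 CPM with StufferOnly and 4.82 to 5.73 CPM with empty capsid. The intmiS1 library at 184 CPM, replicate 2, was also the highest of its group for 6 of the 7 genes. Vector reads were at 568, 648 and 44.6 RPM with intmiS1 and at 248 to 625 RPM with StufferOnly. Those of intmiS1 were counted on another vector sequence than those of all other groups, so these values are not comparable. The part of the markers and of the vector reads in the result was not tested.

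**Figure D4:**
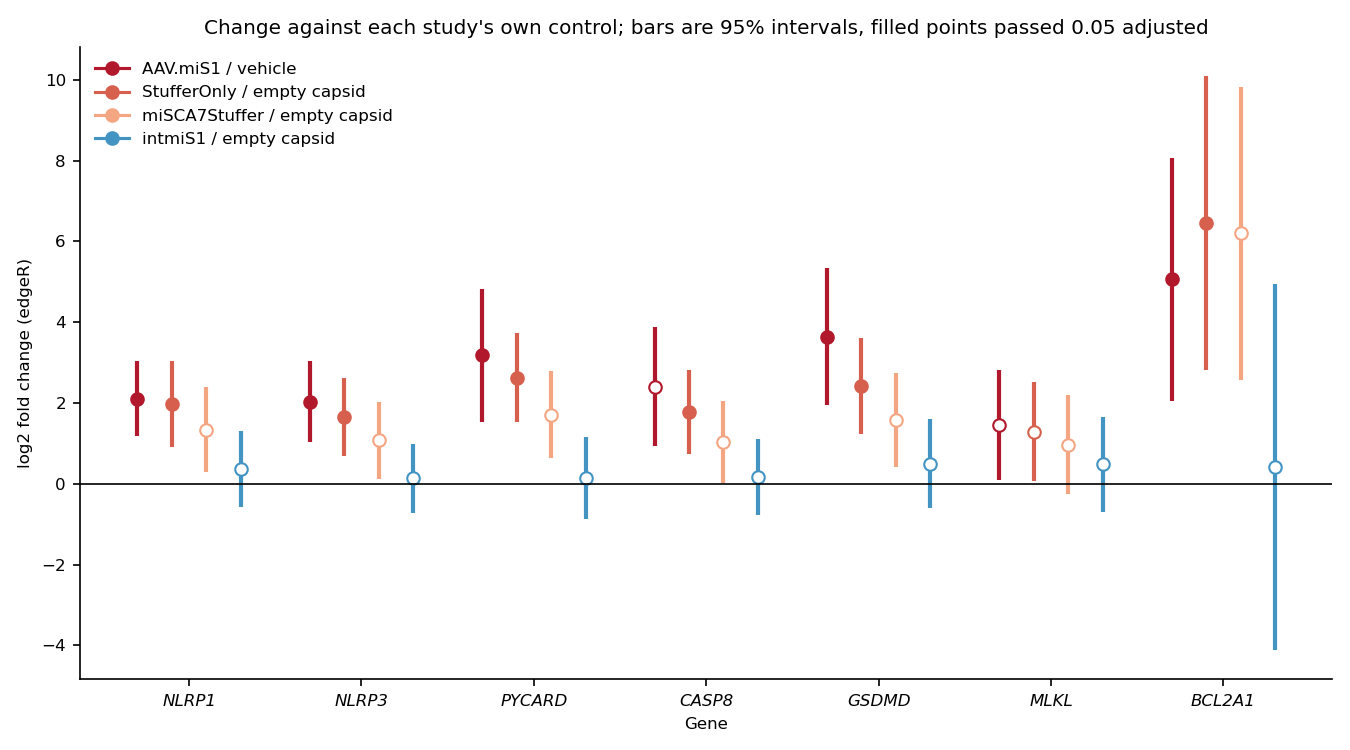
Fitted log2 fold change of each of the 7 genes against the control of its own study, with 95% intervals from edgeR and filled points where the adjusted p was under 0.05. AAV.miS1 and StufferOnly points lie between 1.29 and 6.46, and intmiS1 points between 0.13 and 0.50 with intervals that include 0.

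Whether the constructs differed in effect between the studies was tested in 1 fit of all 22 libraries. The effect of AAV.miS1 over vehicle minus that of StufferOnly over empty capsid passed for 0 of the 7 genes by edgeR and by DESeq2, with 0 at an unadjusted p under 0.05 and 0% of all 16537 genes tested called higher. The differences ranged from -1.25 for BCL2A1 (95% interval -5.84 to 3.34) to 1.29 for GSDMD (-0.65 to 3.24). Without vehicle replicate 2, edgeR called 0 of all 16602 genes, and 0 of the 7 were at an unadjusted p under 0.05. Without vehicle replicate 1 the differences were 2.32 for GSDMD and 0.99 for MLKL (0.20 with all libraries), and BCL2A1 was at -1.98 without AAV.miS1 replicate 1 and -1.86 by DESeq2.

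The effect of AAV.miS1 minus that of intmiS1 passed for 0 of the 7 genes by edgeR, where 0% of all genes were called higher. At an unadjusted p under 0.05 were 5 of the 7, as were 2865 of all 16537 genes tested. The differences were all above 0, from 0.90 for MLKL to 4.67 for BCL2A1, with 3.12 for GSDMD (95% interval 1.15 to 5.10, adjusted p = 0.161) and 2.97 for PYCARD (1.08 to 4.86, adjusted p = 0.161). DESeq2 called 1, PYCARD (adjusted p = 0.0433), beside 2.01% of all genes. Without AAV.miS1 replicate 5, edgeR called 1, beside 270 of all 16574 genes called higher. It called 0 of all 16602 genes without vehicle replicate 2. There 5 of the 7, and 2848 of all genes, were at an unadjusted p under 0.05. Without vehicle replicate 1 the differences were 4.14 for GSDMD and 1.70 for MLKL. BCL2A1 was at 3.91 without AAV.miS1 replicate 1, 5.34 without intmiS1 replicate 2, 3.65 without intmiS1 replicate 3 and 3.74 by DESeq2. Study, control and depth differ between these arms, and their part in the differences cannot be told apart from that of the construct.

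The genes whose level across libraries was most like that of each member were ranked by the mean of the Pearson correlations over the 10 Study 1 and the 9 featureCounts libraries of Study 2, among 12345 genes. These are descriptions, since the libraries share their groups and their depth. NLRP3 was most like CD53, a tetraspanin of leukocytes (mean r 0.988), then NCKAP1L, a regulator of leukocyte actin, and TLR2, a receptor of bacterial lipoproteins. PYCARD was most like SLC16A5, LPXN and BTK, the last a kinase of B and myeloid cells (0.988 to 0.983), and GSDMD most like WDR81, LRRC25 and BIN2 (0.985 to 0.979). NLRP1 was most like BTG2, ZFP36 and UNC93B1, the last a chaperone of Toll-like receptors (0.980 to 0.974), and CASP8 most like PIK3CG, a leukocyte lipid kinase, ATAD2 and TRIM38 (0.980 to 0.977). For BCL2A1 the first 2 genes were CASP4 and CASP5 (0.970 and 0.967), and MLKL had the lowest likeness of the 7, with CLEC1A, CTBS and RASAL3 at 0.956 to 0.942.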

How the data were processed

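The authors deposited tables of read counts per gene, with STAR 2.6.0c as aligner per the submitters' processing notes, and with featureCounts for 10 libraries of Study 2 per the file headers. The sources used here give neither genome build nor annotation. The column for the reverse strand was used for Study 1 (directional kit, per the labels' protocols) and the unstranded column for 2 intmiS1 libraries. On the opposite strand lay 4.81% of the CASP8 reads of Study 1 and at most 1.97% of those of the other 6 genes.

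Counts were filtered with filterByExpr at a minimum count of 10 and a minimum total of 15, scaled with TMM and tested with edgeR 4.0.16 in R 4.3.3 (quasi-likelihood test, Benjamini-Hochberg at 0.05 over all genes). The test was first run on simulated counts. Fits held the 10 Study 1 libraries, the 9 libraries of StufferOnly, miSCA7Stuffer and empty capsid, all 12 of Study 2 for intmiS1, or all 22. SE were taken from the F statistic, fold changes used a prior count of 0.125 and log2 CPM a prior count of 2. DESeq2 1.42.0, leaving out each library and the other alternatives are in the closing section. Pathway genes named are up to 4 per list with the smallest p among those called, and others are named with values after these were seen. Some genes that meet this rule are not reported here. Vector RPM and marker sums are descriptive. The 12 small RNA libraries were not used. The 9 genes, the lists and the tests were chosen with earlier results of these data known.

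Replicates are separate animals by the labels' identifiers, and the labels do not say that a replicate number pairs them. In the deviations from the group means, same-numbered StufferOnly and miSCA7Stuffer animals correlated at 0.436, 0.177 and 0.246, all over the limit of 0.1, and no other pair of groups did so throughout. Depth limits low values: 3 counts in vehicle replicate 2 are 34.2 CPM before TMM scaling, and no 2 libraries of a group agreed within counting noise.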

Additional observations from a re-analysis of the deposited data

Results flagged for a closer look

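The value of BCL2A1 in vehicle replicate 2, 10.4 CPM, lay far above the next vehicle value of 0.844 CPM. The gap is 0.919 of the range of the 4 vehicle libraries, over Dixon's 95% critical value. It is 1 count in the library of 87741 counts. This was the only such value in 14 combinations of gene and group, where chance flags about 1 in 20.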

How the results depend on the processing

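Scaling by RLE, no filter on low counts, DESeq2 and the unstranded column left 5, 5, 6 and 5 of the 7 genes called with AAV.miS1 (main count 5). Among all genes, 1002 of 13383, 951 of 24004, 1645 of 13383 and 824 of 13791 were called higher in the same order. The set of unmapped reads as a covariate left 1, and each set alone 0. Leaving out 1 library gave 0 to 6 with AAV.miS1, 0 to 6 with StufferOnly (main count 6), 0 to 7 with miSCA7Stuffer against empty capsid (0), 0 to 4 with intmiS1 against StufferOnly (6) and 0 to 1 for the AAV.miS1 minus intmiS1 effect (0). These ranges include DESeq2 without 1 library, a setting added after seeing the data, which gave 5 to 6 with AAV.miS1 and 6 with StufferOnly. DESeq2 called 4 with miSCA7Stuffer and 1 for the AAV.miS1 minus intmiS1 effect. With the featureCounts library as the only intmiS1 one, 0 passed against StufferOnly, its lone value being assumed to vary like the other groups. The cause of these changes was not tested. Over all genes, the edgeR count went from 0 to 2300 with AAV.miS1 (main 1004) and from 0 to 6314 with StufferOnly (3219).

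Same-numbered animals of Study 2 had correlations of their deviations from -0.0981 to 0.436, and 5 of 18 pairs were over 0.1, among them all 3 of StufferOnly with miSCA7Stuffer and not all of any other pair of groups. A fit with the replicate number as a block called 7 genes with StufferOnly against empty capsid, with MLKL added (adjusted p = 0.0381 by edgeR), 6 with intmiS1 against StufferOnly and 0 in the other Study 2 comparisons. Among all genes, 2362 of 21814 were called higher in the first of these, and 2078 of 22451 lower in the second.

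Uncalled values changed sign in these refits. Against StufferOnly, without miSCA7Stuffer replicate 1, BCL2A1 was at 0.41 and MLKL at 0.17 (ranges with any 1 library left out -0.76 to 0.41 and -0.68 to 0.17). Against empty capsid with intmiS1, PYCARD was at -0.053 without empty capsid replicate 3 (range to 0.32), and BCL2A1 at -0.26 without intmiS1 replicate 2 and -0.70 with the featureCounts library alone (range with 1 library left out to 1.43). For the AAV.miS1 minus StufferOnly effect, NLRP1 was at -0.041 without AAV.miS1 replicate 1, -0.039 without replicate 2 and -0.029 without vehicle replicate 3 (range to 0.38). MLKL there was at -0.16 without AAV.miS1 replicate 1, -0.040 without vehicle replicate 3 and -0.11 without vehicle replicate 4 (range to 0.99). Depth limits BCL2A1 and GSDMD in Study 1, whose vehicle libraries hold 5 and 8 counts of them in all.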
